A study of Homo sapiens with 24 samples.

Results

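The module described here holds 32 genes of the unfolded protein response and of protein folding in the endoplasmic reticulum (ER), and they are the rows of a table of raw counts that carry the 32 gene symbols. All 32 were found among the 60683 genes of the table, and 31 passed the filter on low counts that left 16196 genes for testing. RNA was sequenced from HepG2 cells, which derive from a human liver carcinoma, after the gene of the glucocorticoid receptor, NR3C1, had been knocked out with CRISPR/Cas9 (HepG2 GR-/-). All 24 libraries came from such cells after transduction with a doxycycline-inducible lentivirus for a Ty1-tagged receptor, which was wild type (WT), K154R or K154Q (genotype labels sg18+WT, sg18+K154R and sg18+K154Q). Per the series' design text, K154R removes the acetylation site and K154Q mimics acetylation. Each genotype was treated for 6 h with ethanol as vehicle or with the synthetic glucocorticoid dexamethasone at 1 µM, which gives 6 groups of 4 libraries. All groups shared 24 h of doxycycline at 0.3 to 1 µg/mL, a dose set to match receptor protein, and 24 h of washout in charcoal-stripped medium. Both the receptor's amount and its timing were therefore set by the virus and the drug, not by the gene's own promoter. Replicates 1 to 4 came from 2 experiments, each with 2 transductions, and the sources used here do not say which number belongs to which.

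Proteins that enter the ER fold with the help of the HSP70-type chaperone BiP (HSPA5), the HSP90-type chaperone GRP94 (HSP90B1), the lectins calnexin and calreticulin, and disulfide isomerases. When unfolded proteins pile up, the sensors IRE1 (ERN1), PERK (EIF2AK3) and ATF6 respond. IRE1 splices XBP1 mRNA, ATF6 is cut to free a transcription factor, and PERK slows translation and favours that of ATF4. XBP1 and ATF6 raise chaperones and the factors of ER-associated degradation, and ATF4 raises genes of amino acid supply, redox balance and recovery of translation. Hepatocytes secrete most plasma proteins and depend on this system.

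The promoters below are shown because they carry the elements through which the 3 branches are known to act, and because the 4 genes stand for the roles described in the results. RefSeq promoter windows on GRCh38.p14, each 300 bases long with 250 bases before the gene's start and 50 from it on, were matched by symbol for 31 of the 32 members. Capitals mark the fixed letters of the motifs found.
HSPA5, chr9:125241294-125241593, reverse strand: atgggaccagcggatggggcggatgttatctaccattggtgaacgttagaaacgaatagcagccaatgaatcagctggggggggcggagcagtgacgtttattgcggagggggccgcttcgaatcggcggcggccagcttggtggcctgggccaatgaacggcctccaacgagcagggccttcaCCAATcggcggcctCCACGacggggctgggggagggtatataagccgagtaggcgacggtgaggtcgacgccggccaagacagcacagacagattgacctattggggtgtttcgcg
HERPUD1, chr16:56931892-56932191, forward strand: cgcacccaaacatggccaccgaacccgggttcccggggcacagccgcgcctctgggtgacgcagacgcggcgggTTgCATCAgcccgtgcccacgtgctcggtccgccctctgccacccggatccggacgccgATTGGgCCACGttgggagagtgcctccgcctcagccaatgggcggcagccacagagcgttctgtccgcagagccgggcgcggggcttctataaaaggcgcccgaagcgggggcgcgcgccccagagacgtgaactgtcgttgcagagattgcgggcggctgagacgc
HYOU1, chr11:119057156-119057455, reverse strand: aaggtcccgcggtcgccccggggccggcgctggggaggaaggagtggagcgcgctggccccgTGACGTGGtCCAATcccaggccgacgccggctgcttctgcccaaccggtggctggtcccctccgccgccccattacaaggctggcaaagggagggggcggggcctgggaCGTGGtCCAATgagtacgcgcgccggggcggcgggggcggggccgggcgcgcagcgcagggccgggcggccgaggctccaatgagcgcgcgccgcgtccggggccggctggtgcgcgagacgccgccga
ASNS, chr7:97872359-97872658, reverse strand: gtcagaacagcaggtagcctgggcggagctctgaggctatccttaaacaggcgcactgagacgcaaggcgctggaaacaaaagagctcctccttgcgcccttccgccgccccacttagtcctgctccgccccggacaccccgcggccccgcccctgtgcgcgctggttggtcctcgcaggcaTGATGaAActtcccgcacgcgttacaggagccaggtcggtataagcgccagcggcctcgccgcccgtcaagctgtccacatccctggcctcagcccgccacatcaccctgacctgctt
In these windows HSPA5 holds 1 ER stress response element (ERSE, CCAAT and CCACG with 9 bases of any kind between). HERPUD1 holds 1 ERSE-II (ATTGG and CCACG with 1 base between) and 1 C/EBP-ATF response element (CARE, TGATGNAA), the latter on the opposite strand. HYOU1 holds 2 ERSE-II on the opposite strand, and a UPRE (TGACGTGG) overlaps the more distant of them. ASNS holds 1 CARE.

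The 19-base ERSE of the other members that hold one is listed below. The search fixed CCAAT and CCACG, so only the 9 bases between could differ, and they did so from gene to gene.
CALR: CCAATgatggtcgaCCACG
CANX: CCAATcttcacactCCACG
CRELD2: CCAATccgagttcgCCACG
ERO1B: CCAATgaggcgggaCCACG
HSP90B1, distant copy: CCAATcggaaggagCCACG
HSP90B1, near copy: CCAATcgcgccgcaCCACG
PDIA6: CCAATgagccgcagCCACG
XBP1: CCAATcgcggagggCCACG
Some members have more than 1 window, so shares of windows are set against each other. Searched on both strands, the ERSE was in 8 of the 31 members. That is 10 of the members' 42 windows (23.8%), against 0.0769% of all 35116 windows of the same length. The ERSE-II was in 3 members (HERPUD1, HYOU1 and SDF2L1), in 7.14% of member windows and 0.0541% of all windows. The UPRE was in HYOU1, in 2.38% of member windows and 0.729% of all windows. The CARE was in 5 members (ASNS, ATF3, CHAC1, HERPUD1 and PPP1R15B), in 11.9% of member windows and 3.62% of all windows. In all, 15 members held at least 1 of these motifs. A match of letters does not show that a factor binds there.

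Libraries held 23863672 to 42072021 counts, and 23420 to 25659 genes had a count. All 8 hepatocyte markers were detected in every library, with a summed level of 43760 to 56670 CPM (read counts scaled by library size with TMM factors). The 8 markers of other cell types summed to 7.76 to 15.8 CPM, mostly from ACTA2, while PTPRC was at 0 in all 24 libraries and KRT5 had 1 count in all. NR3C1 group means ran from 83.4 to 93.2 CPM. Counts of the receptor put back and of the disrupted gene cannot be told apart there, so this level does not check the knockout. Reads from RNA of bulk cultures were counted, in which fewer cells of a type and less RNA per cell cannot be told apart. The glucocorticoid targets FKBP5, HOMER2 and CRY2 rose in all 3 genotypes, and FKBP5 rose by 1.06 on the log2 scale (SE 0.05, adjusted p = 4.5e-12 by edgeR) in the response averaged over the receptors.

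Set per kilobase of exon so that genes can be compared, the most abundant members belonged to the folding machinery of the ER lumen. In the 12 vehicle libraries CALR, a calcium-binding lectin chaperone, stood at 496 ± 45.9 CPM per kilobase (SD, n = 12), which ranked it 46 among the 16196 tested genes. HSPA5 followed with 396 ± 42.5 CPM per kilobase. HSP90B1 stood at 314 ± 30.4 CPM per kilobase and P4HB, a disulfide isomerase, at 281 ± 13.6. CALR and HSPA5 were each set apart from the next lower gene by more than the SDs of both genes together, whereas HSP90B1 and P4HB, and P4HB and PDIA4 (254 ± 17.1), overlapped within 1 SD. PDIA3, CANX, XBP1, PDIA6 and ATF4 formed a continuous run from 173 to 128 CPM per kilobase in which no neighbours differed beyond that spread.

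**Figure D1:**
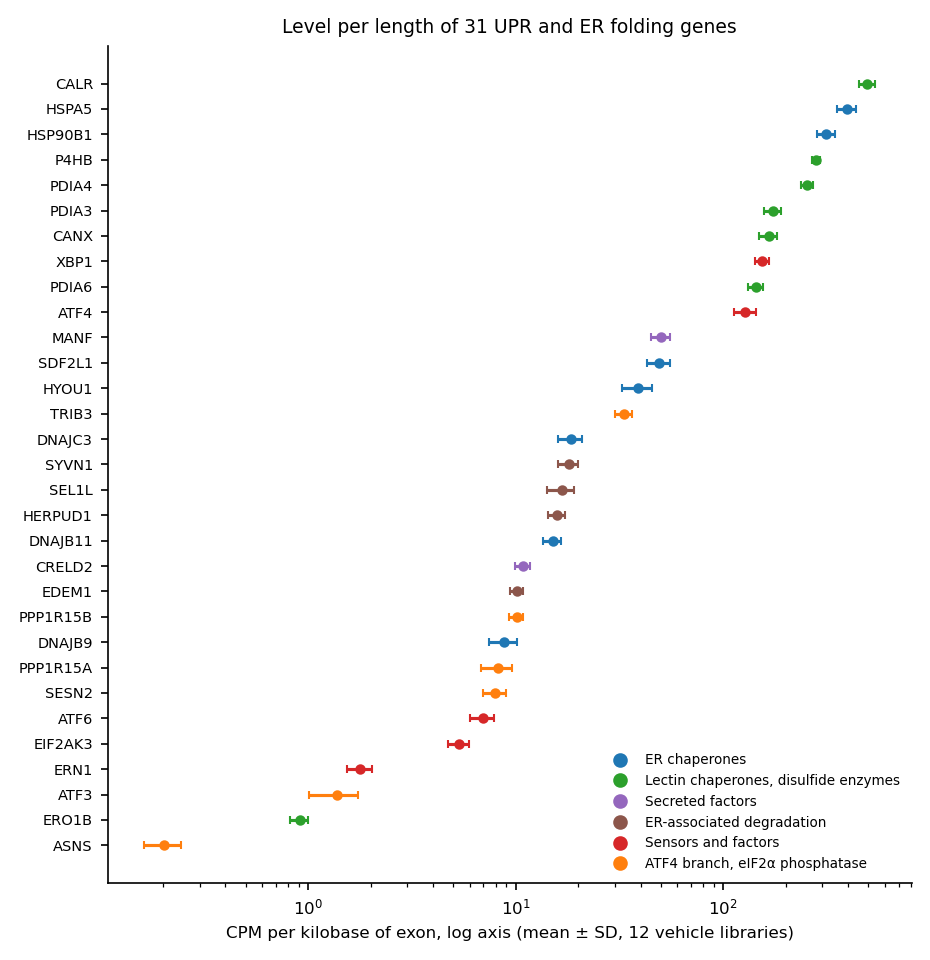
Level of the 31 tested members on a log axis, in CPM per kilobase of exon (points are means and bars SDs of 12 vehicle libraries, colours mark roles). Levels run from 496 for CALR to 0.203 for ASNS, with chaperones and disulfide isomerases at the top and the sensors low.

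The sensors were less abundant than the 7 ER chaperones. ATF6 stood at 6.96 ± 0.915, EIF2AK3 at 5.35 ± 0.629 and ERN1 at 1.79 ± 0.252 CPM per kilobase (SD, n = 12). The transcription factors XBP1 and ATF4, at 153.8 ± 11.7 and 128 ± 15.4 CPM per kilobase, were well above their sensors. Counts per gene do not separate spliced from unspliced XBP1 mRNA, nor full-length from cut ATF6 protein. HERPUD1, an ER membrane protein that takes part in ER-associated degradation, stood at 15.8 ± 1.51 CPM per kilobase. Its partners SYVN1, the ubiquitin ligase HRD1, and SEL1L, which holds the ligase complex together, stood at 18.0 ± 2.02 and 16.7 ± 2.43. The 3 genes did not differ beyond their SDs. In the ATF4 branch TRIB3, a pseudokinase induced by ATF4, stood at 33.3 ± 3.23 CPM per kilobase, the transcription factor ATF3 at 1.37 ± 0.369, and ASNS, asparagine synthetase, at 0.203 ± 0.0407, the lowest of the tested members. ASNS had 751 counts over all 24 libraries. CHAC1, a glutathione-degrading enzyme used as a marker of ATF4 activity, had 5 counts, each in a different library, and was not tested. By group, CHAC1 had 1 count in WT after vehicle, 0 in WT after dexamethasone, 1 and 2 in K154R, and 0 and 1 in K154Q. A count of 3 over a group, the floor used here, is worth 0.0222 to 0.0251 CPM, so differences in CHAC1 were not detectable at this depth.

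The dexamethasone response of each genotype asks whether the hormone moves the module in cells with that receptor. All groups carried a receptor, so a part of the response that does not pass through it cannot be told apart. In WT cells 0 of the 31 tested members passed an adjusted p of 0.05 (edgeR quasi-likelihood test, Benjamini-Hochberg over all genes), where 0.161% of all tested genes passed. At an unadjusted p under 0.05 edgeR listed 1 member, HERPUD1, where 2.33% of all genes were listed as higher, and DESeq2 called 0 (0.34% of all genes) and listed 1 at the unadjusted threshold (3.31% of all genes). In K154R cells edgeR called 0 members against 0.309% of all genes, with 3 members (CRELD2, HERPUD1 and TRIB3) listed as higher at an unadjusted p under 0.05 against 2.49% of all genes, while DESeq2 called 0 (0.475% of all genes) and listed 3 unadjusted (3.03%). In K154R and K154Q the replicate numbers were taken to pair the libraries. That rests on correlations in these data, as no label says so. The fit with the number as a block listed 6 members as higher in K154R (ATF6, CRELD2, DNAJB9, HERPUD1, SDF2L1 and TRIB3), against 5.22% of all genes. In K154Q cells edgeR called 0 against 0.13% of all genes and listed 0 unadjusted against 2.26%, and DESeq2 called 0 (0.29% of all genes) and listed 0 (2.15%). With the replicate block 5 members were listed as higher in K154Q (ATF6, ERN1, HERPUD1, HYOU1 and TRIB3), against 4.3% of all genes, and 0 passed the adjusted threshold. The response averaged over the 3 receptors, which uses all 24 libraries, gave 0 calls among members against 1.06% of all genes in the fit without replicate number. It listed 5 members at an unadjusted p under 0.05, all with positive estimates (ATF6, EDEM1, ERN1, HERPUD1 and TRIB3), which is 16.1% of the members where 4.58% of all genes were listed in that direction. DESeq2 called HERPUD1 in the averaged response, where it called 1.58% of all genes, and listed 8 members unadjusted against 7.21% of all genes. With replicate number as a block edgeR called 6 members in the averaged response, against 4.23% of all genes. Not all same-number pairs of the 24 libraries passed the correlation used to accept pairing.

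Estimates for most members were small and above 0. In WT 27 of the 31 log2 fold changes were above 0, with a median of 0.12, where 47.2% of all genes were above 0 and their median was -0.01. In K154R 28 were above 0, with a median of 0.064 (all genes 48.1% and -0.005). In K154Q 26 were above 0, with a median of 0.055 (all genes 49.1% and -0.002). None of these single-gene estimates passed the adjusted threshold in the fit without the block, and neighbouring members of a pathway vary together within a culture, so the members are not independent counts of direction. The 31 WT estimates lay between -0.22 and 0.28, those of K154R between -0.14 and 0.26, and those of K154Q between -0.05 and 0.25. The 3 responses rest on separate libraries, 4 of vehicle and 4 of dexamethasone in each genotype. Single libraries moved these medians. The WT median was 0.078 without dexamethasone number 3 and 0.20 without dexamethasone number 4. In K154R it was 0.041 without dexamethasone number 2 and 0.097 without dexamethasone number 4. In K154Q it was 0.028 without vehicle number 4, 0.035 without dexamethasone number 1 and 0.082 without vehicle number 1. At an unadjusted p under 0.05 the members listed in WT ranged from 0, without vehicle number 1 or dexamethasone number 2, through 2, 3 and 7, without vehicle number 2, dexamethasone number 1 and vehicle number 3, to 13 without dexamethasone number 4. In K154R 0 were listed without vehicle number 1 and 4 without vehicle number 2. In K154Q 1 was listed without vehicle number 3 or without dexamethasone number 1, 2 or 3. In the averaged response 11 were listed without WT dexamethasone number 4, 9 without WT vehicle number 3 or K154R vehicle number 2, and 3 without WT vehicle number 4. The share of all genes was not counted in these refits, so changes in these counts may not be particular to the members.

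**Figure D2:**
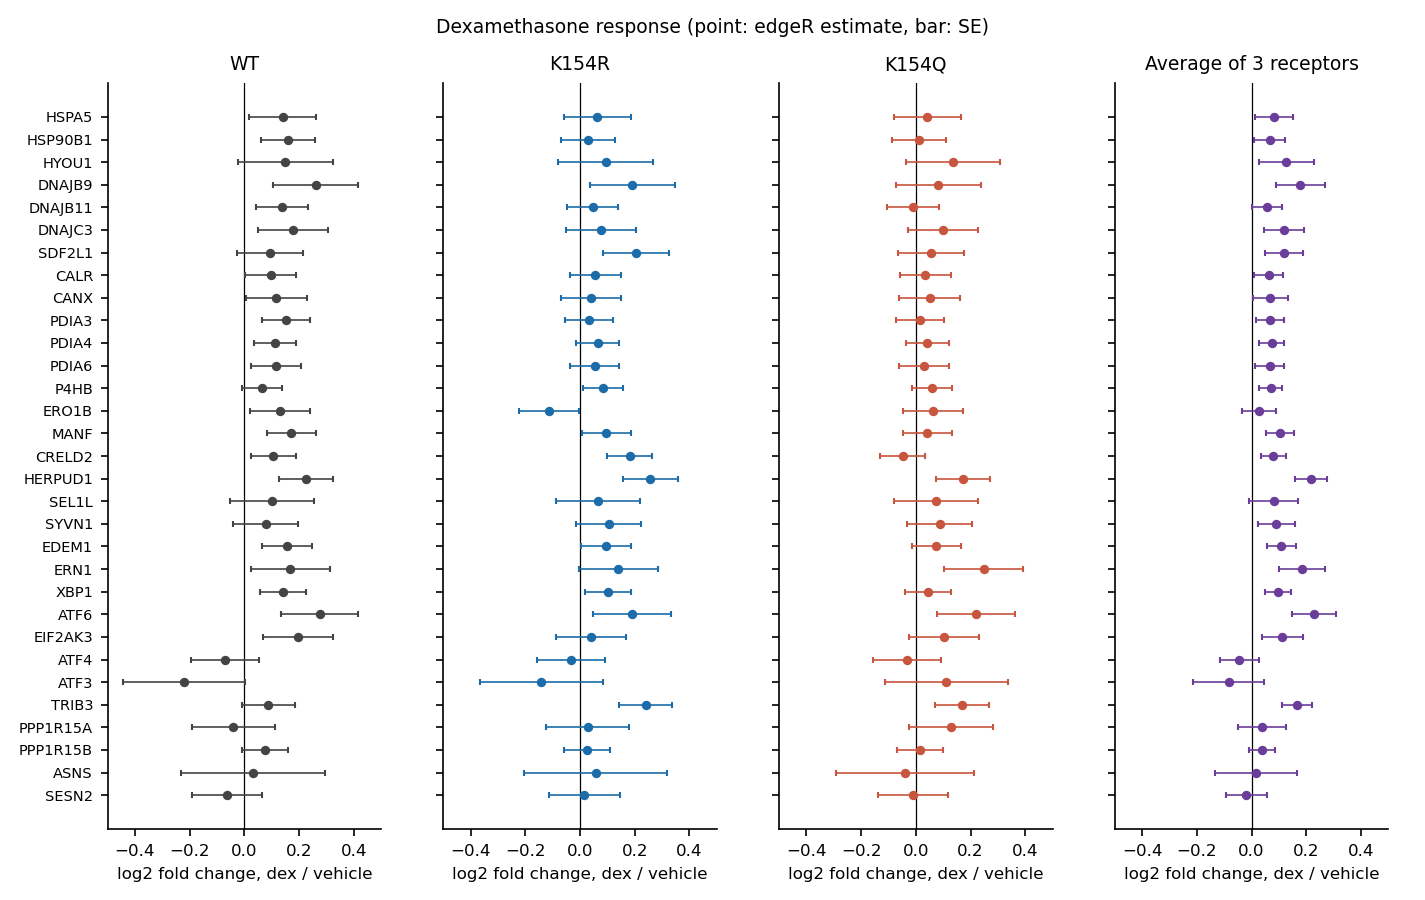
Log2 fold change, dexamethasone over vehicle, of the 31 tested members in WT, K154R and K154Q and in the average of the 3 (points are edgeR estimates, bars are SEs). Most points lie between 0 and 0.28, the ATF4 and ATF3 points lie below 0 in WT and K154R, and no member passed the adjusted threshold in this fit, which has no replicate block.

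HERPUD1 was the member with the smallest p in the averaged response. It encodes an ER membrane protein of the degradation complex and is a known target of all 3 branches. In WT its level, for replicate numbers 1 to 4 in order, was 70.6, 76.7, 89.1 and 77.2 CPM after vehicle and 82.0, 93.6, 109 and 81.5 CPM after dexamethasone. In K154R it was 67.0, 87.5, 88.9 and 89.2 CPM after vehicle and 91.5, 106, 99.3 and 100.7 CPM after dexamethasone. In K154Q it was 75.1, 76.3, 83.8 and 76.1 CPM after vehicle and 78.3, 86.7, 95.0 and 90.6 CPM after dexamethasone. The dexamethasone library was the higher of the pair in 12 of 12 pairs of the same genotype and replicate number, which held for 1.93% of all tested genes. The vehicle and dexamethasone groups overlapped in WT and K154Q and did not overlap in K154R, where 1.33% of all genes separated in the same direction. The log2 fold change of HERPUD1 was 0.22 in WT (SE 0.10), 0.26 in K154R (SE 0.10) and 0.17 in K154Q (SE 0.10), each with an adjusted p near 1 by edgeR. The WT estimate was 0.13 without dexamethasone number 3, and the K154R estimate was 0.17 without vehicle number 1. Averaged over the receptors it was 0.22 (SE 0.06, adjusted p = 0.0743 by edgeR), which misses the threshold. Of 24 refits that each left out 1 library, it passed in 5. The adjusted p by edgeR was 0.0239 without WT vehicle number 3, and 0.0462 and 0.0435 without WT dexamethasone numbers 1 and 4. It was 0.0488 and 0.0489 without K154Q vehicle number 3 and dexamethasone number 1. In the other refits HERPUD1 did not pass, with an adjusted p of up to 0.131. DESeq2 gave 0.22 with an adjusted p of 0.0229, and edgeR without the filter on low counts gave 0.22 with an adjusted p of 0.0308. In K154R, with replicate number as a block, HERPUD1 rose by 0.26 on the log2 scale (adjusted p = 0.0306 by edgeR). In that fit 1 member was called, against 1.23% of all genes. The call held without replicate number 3 (0.30, adjusted p = 0.0255) and without number 4 (0.29, adjusted p = 0.048). It was lost without number 1 (0.21, adjusted p = 0.419) and without number 2 (0.26, adjusted p = 0.249). The vehicle library of K154R with number 1 had the lowest HERPUD1 level of all 24, 67.0 CPM.

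The other degradation members had smaller estimates. EDEM1, which draws mannose-trimmed glycoproteins to degradation, ran from 59.9 to 72.7 CPM after vehicle and from 73.1 to 78.9 CPM after dexamethasone in WT, so that these groups did not overlap, which 1.41% of all genes did in that direction. In K154R and K154Q the EDEM1 groups overlapped. The averaged log2 fold change of EDEM1 was 0.11 (SE 0.05, adjusted p = 0.70 by edgeR). SYVN1 stood at 0.09 (SE 0.07) and SEL1L at 0.08 (SE 0.09) in the averaged response.

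**Figure D3:**
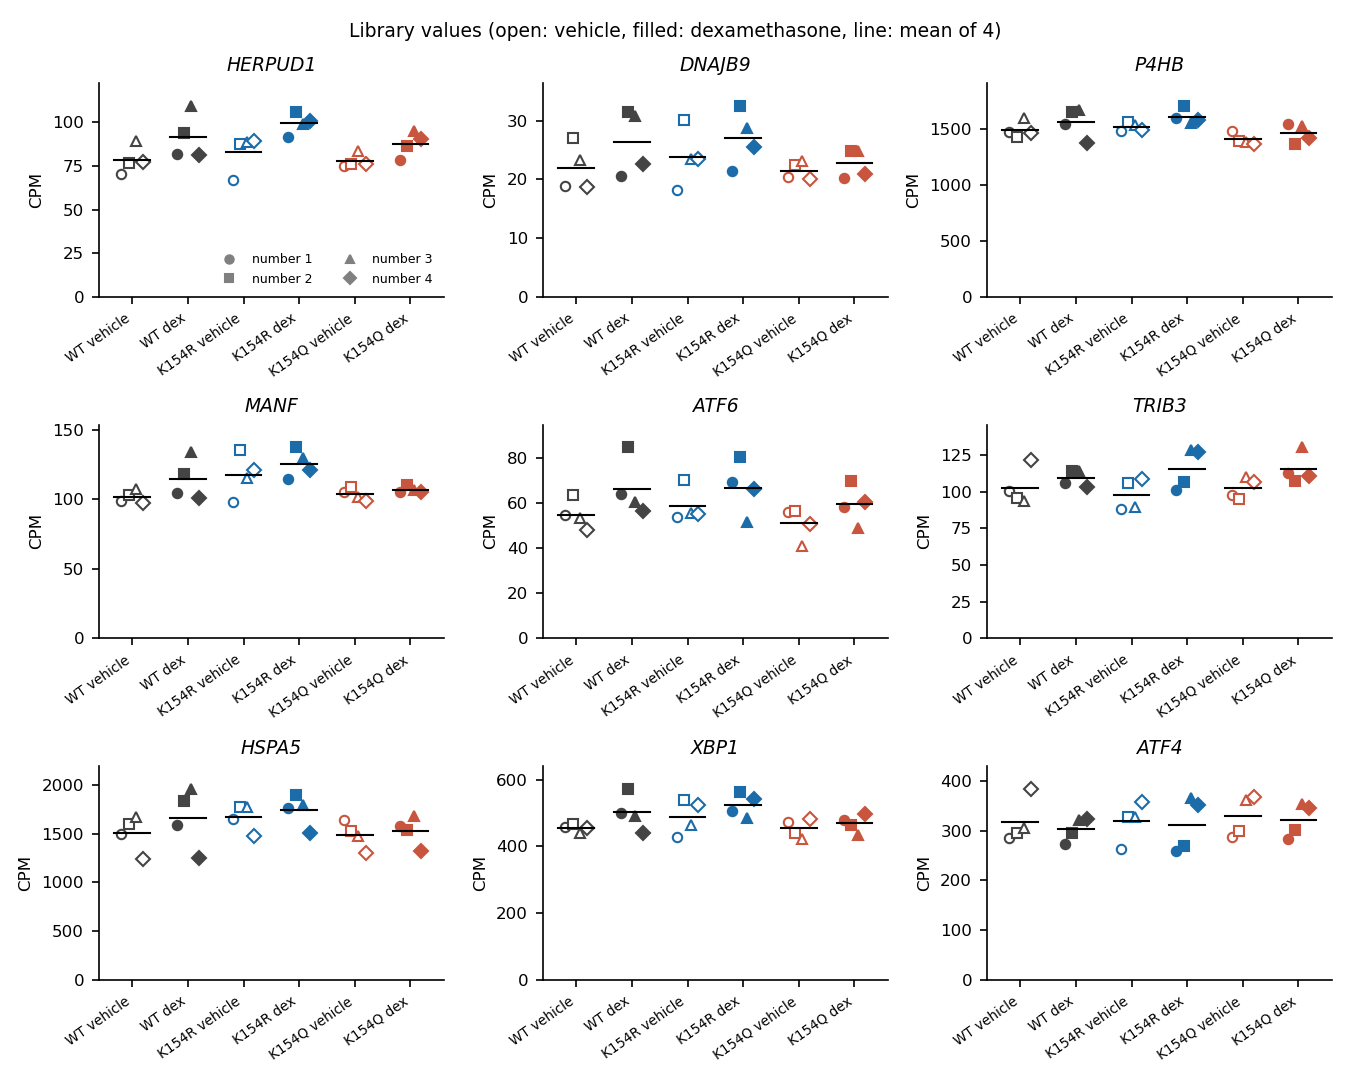
CPM of 9 members in each library (open symbols vehicle, filled symbols dexamethasone, shapes replicate numbers, lines means of 4, axes from 0). HERPUD1 dexamethasone points in K154R, from 91.5 to 106 CPM, all lie above its vehicle points, whereas ATF4 points of the groups overlap throughout.

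Among sensors and transcription factors, 4 of 5 had a positive averaged estimate and ATF4 a negative one, with a median of 0.11 over the 5. ATF6, the transmembrane sensor that is cut to free its factor, had the largest averaged estimate of the module. ATF6 in WT stood at 54.5, 63.4, 53.2 and 48.2 CPM after vehicle and 63.8, 84.6, 60.4 and 56.5 CPM after dexamethasone. ATF6 in K154R stood at 53.7, 70.1, 55.5 and 54.9 CPM after vehicle and 69.1, 80.3, 51.6 and 66.0 CPM after dexamethasone. ATF6 in K154Q stood at 55.8, 56.3, 40.9 and 50.7 CPM after vehicle and 58.2, 69.7, 49.0 and 60.4 CPM after dexamethasone. The groups overlapped in every genotype, and libraries with replicate number 2 were the highest of each group. ATF6 was higher after dexamethasone in 11 of 12 pairs, the exception being number 3 of K154R. Its averaged log2 fold change was 0.23 (SE 0.08, adjusted p = 0.362 by edgeR), and without the filter on low counts it was 0.23 with an adjusted p of 0.0184. The sensor ERN1 stood at 0.19 (SE 0.08, adjusted p = 0.63) and EIF2AK3 at 0.11 (SE 0.07, adjusted p = 0.86) in the averaged response by edgeR.

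XBP1, the factor downstream of ERN1, in WT stood at 456.5, 466, 441 and 454 CPM after vehicle and 500.2, 572, 492 and 441 CPM after dexamethasone. XBP1 in K154R stood at 428, 538, 465 and 524 CPM after vehicle and 505, 563.8, 485.5 and 542 CPM after dexamethasone. XBP1 in K154Q stood at 474, 439, 422 and 481 CPM after vehicle and 477.5, 465, 435 and 497 CPM after dexamethasone. All 3 pairs of groups overlapped, and WT with number 4 was the single pair of 12 in which the dexamethasone library was the lower. The averaged log2 fold change of XBP1 was 0.10 (SE 0.05, adjusted p = 0.74 by edgeR). ATF4, the factor of the PERK branch, in WT stood at 286, 296, 305 and 384 CPM after vehicle and 273, 296, 321 and 323 CPM after dexamethasone. ATF4 in K154R stood at 263, 327.5, 328 and 359 CPM after vehicle and 259.6, 270.1, 365 and 352 CPM after dexamethasone. ATF4 in K154Q stood at 287, 299, 362 and 368 CPM after vehicle and 284, 302, 355 and 345 CPM after dexamethasone. ATF4 groups overlapped in every genotype, and its libraries with numbers 3 and 4 were above those with number 1 in each group. The dexamethasone library was the higher in 3 of 12 pairs. Its averaged log2 fold change was -0.05 (SE 0.07, adjusted p = 0.94 by edgeR), and leaving out 1 library moved the estimate in WT between -0.10 and 0.05. ATF4 is controlled mainly at translation, which counts of mRNA do not measure.

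All 7 ER chaperones and co-chaperones had averaged estimates above 0, with a median of 0.12, and 0 passed the adjusted threshold in the fit without the block. HSPA5 (BiP) is the usual reporter of the response. HSPA5 in WT stood at 1498, 1600, 1668 and 1242 CPM after vehicle and 1583, 1835, 1958 and 1250 CPM after dexamethasone. HSPA5 in K154R stood at 1649, 1775, 1777 and 1471 CPM after vehicle and 1766, 1900, 1793 and 1505 CPM after dexamethasone. HSPA5 in K154Q stood at 1635, 1522, 1480 and 1305 CPM after vehicle and 1579, 1536, 1675 and 1324 CPM after dexamethasone. Number 4 gave the lowest HSPA5 level in each of the 6 groups, and vehicle and dexamethasone overlapped in all 3 genotypes. The averaged log2 fold change of HSPA5 was 0.08 (SE 0.07, adjusted p = 0.89 by edgeR), and its estimate in WT moved from 0.14 to between 0.05 and 0.27 when 1 library was left out. DNAJB9 (ERdj4), a BiP co-chaperone that also restrains IRE1, had the largest averaged estimate of the group. DNAJB9 in WT stood at 18.9, 27.0, 23.2 and 18.8 CPM after vehicle and 20.5, 31.5, 30.7 and 22.6 CPM after dexamethasone. DNAJB9 in K154R stood at 18.2, 30.0, 23.4 and 23.4 CPM after vehicle and 21.4, 32.5, 28.8 and 25.6 CPM after dexamethasone. DNAJB9 in K154Q stood at 20.5, 22.4, 23.1 and 20.1 CPM after vehicle and 20.3, 24.8, 24.9 and 21.0 CPM after dexamethasone. Its groups overlapped in each genotype, and 11 of 12 pairs were higher after dexamethasone. The averaged log2 fold change of DNAJB9 was 0.18 (SE 0.09, adjusted p = 0.74 by edgeR). The other chaperones of this group, HSP90B1, HYOU1, DNAJB11, DNAJC3 and SDF2L1, had averaged estimates from 0.06 to 0.13.

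Lectin chaperones and disulfide enzymes had the smallest estimates of the folding genes. All 7 were above 0 in the averaged response, from 0.03 for ERO1B, an oxidase that recharges disulfide isomerases, to 0.07 for PDIA4, with a median of 0.07. P4HB, the isomerase that ERO1 enzymes oxidise, had the smallest p of this group. It ran from 1360 to 1591 CPM over the 12 vehicle libraries and from 1366 to 1702 CPM over the 12 dexamethasone libraries, and its averaged log2 fold change was 0.07 (SE 0.04, adjusted p = 0.84 by edgeR). The secreted factors MANF and CRELD2, which are induced by ER stress, are taken up with the genotypes. MANF had an averaged log2 fold change of 0.10 (SE 0.05, adjusted p = 0.73) and CRELD2 of 0.08 (SE 0.05, adjusted p = 0.83 by edgeR).

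The ATF4 branch did not share a direction. Of its 6 tested members 4 had averaged estimates above 0 and the median was 0.03. TRIB3 had the smallest p of the group. TRIB3 in WT stood at 100.5, 95.6, 93.4 and 121.5 CPM after vehicle and 106, 114, 114 and 103 CPM after dexamethasone. TRIB3 in K154R stood at 88.0, 106, 89.4 and 108 CPM after vehicle and 101.1, 106.5, 128 and 127 CPM after dexamethasone. TRIB3 in K154Q stood at 97.8, 94.8, 110.1 and 107 CPM after vehicle and 113, 107, 130.1 and 110.3 CPM after dexamethasone. TRIB3 groups overlapped in each genotype, and 11 of 12 pairs were higher after dexamethasone, the exception being number 4 of WT. Its averaged log2 fold change was 0.17 (SE 0.06, adjusted p = 0.283 by edgeR). ATF3 stood at -0.22 (SE 0.22) in WT, -0.14 (SE 0.23) in K154R and 0.11 (SE 0.23) in K154Q. PPP1R15A (GADD34) and PPP1R15B (CReP), the subunits that bring phosphatase to eIF2α, both stood at 0.04 in the averaged response, with SEs of 0.09 and 0.05. SESN2, a stress-induced regulator of growth signalling, stood at -0.02 (SE 0.07). ASNS stood at 0.02 with an SE of 0.15, the least precise estimate of the tested members.

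Whether the dexamethasone response of the module differs between receptors was tested as the difference of responses. edgeR called 0 of 31 members in each of the 3 differences (K154R less WT, K154Q less WT, K154Q less K154R), and called 0% of all genes. It listed 0 members at an unadjusted p under 0.05, where 0.71%, 0.895% and 0.611% of all genes were listed, and DESeq2 called 0 members (0% of all genes) and listed 0 (0.519%, 0.778% and 0.531% of all genes). For HERPUD1 the K154R response minus the WT response was 0.03, with a 95% interval from -0.26 to 0.32. Its K154Q response minus the WT response was -0.05, with an interval from -0.34 to 0.24. These intervals are wider than the HERPUD1 response itself, so they do not show that the receptors act alike. For CRELD2 the K154Q response minus the K154R response was -0.23, with an interval from -0.47 to 0.01 and an unadjusted p of 0.0586 in edgeR's model across all genes. With the replicate block, as numbers were taken to pair these libraries, CRELD2 was the 1 member under an unadjusted p of 0.05, against 1.77% of all genes, and 0 passed the adjusted threshold.

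Levels were also compared between genotypes within each treatment. For K154Q against K154R the estimates of all 7 ER chaperones and all 7 lectin chaperones and disulfide enzymes were below 0, after vehicle and after dexamethasone. None of the 31 members was called by edgeR in any of the 6 genotype comparisons, in which 0% of all genes were called. DESeq2 called 0 members too, against 0.00617% of all genes for K154Q against WT after dexamethasone and 0% in the other comparisons. After dexamethasone, K154Q against K154R gave 7 members with an unadjusted p under 0.05 by edgeR, all lower in K154Q (CALR, CRELD2, DNAJB11, MANF, PDIA3, PDIA4 and PDIA6). That is 22.6% of the members, where 2.03% of all genes were listed in that direction, and DESeq2 listed 9 members against 3.01% of all genes. With the replicate block, as numbers were taken to pair these libraries, 15 members were listed, all lower in K154Q, against 6.58% of all genes, and 0 passed the adjusted threshold. After vehicle the same comparison listed 1 member, CALR, against 0.698% of all genes in that direction, DESeq2 listed 5, against 1.19% of all genes, and the block listed 11, against 3.52%. Leaving out 1 library moved the count after dexamethasone between 2 and 8, with 2 listed without number 2 of K154R, 3 without number 2 of K154Q and 4 without number 4 of K154Q. After vehicle 0 were listed without number 2 or 3 of K154R or number 4 of K154Q, 2 without number 4 of K154R or number 2 of K154Q, and 3 without number 1 of either genotype. The share of all genes was not counted in these refits.

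CRELD2, a secreted isomerase-like factor, was one of these members. After dexamethasone CRELD2 stood at 53.2, 55.1, 53.4 and 56.1 CPM in K154Q, at 60.7, 72.6, 68.2 and 61.3 CPM in K154R and at 55.7, 61.0, 62.4 and 50.7 CPM in WT. The K154Q and K154R groups did not overlap, and WT covered the range of K154Q and the lower part of that of K154R. The log2 difference of CRELD2, K154Q against K154R, was -0.27 (95% interval -0.44 to -0.10, unadjusted p = 0.0029 and adjusted p = 1.0 in edgeR's model across all genes). MANF, a secreted protein that protects cells under ER stress, stood after dexamethasone at 105, 110, 107 and 105 CPM in K154Q and at 114, 137, 129 and 121 CPM in K154R. CALR stood at 1313, 1352, 1245 and 1310 CPM in K154Q and at 1471, 1670, 1484 and 1428 CPM in K154R. PDIA3 (ERp57), the isomerase that works with calreticulin, stood at 724, 713, 708 and 679.7 CPM in K154Q and at 795, 858, 817 and 759 CPM in K154R. In all 3 genes each K154Q library was below each K154R library. The log2 differences were -0.23 for MANF, -0.21 for CALR and -0.19 for PDIA3, with SEs of 0.09 each and adjusted p values of 1.0 by edgeR. Such separation was seen in 7 members (CALR, CRELD2, MANF, P4HB, PDIA3, PDIA4 and PDIA6), 22.6% of those tested, against 0.834% of all genes. After vehicle 0 members separated in this way, against 0.469% of all genes. The 31 log2 differences had a median of -0.12 after dexamethasone and -0.11 after vehicle, with 26 and 28 of them below 0, where the medians of all genes were 0.005 and 0.003. K154R against WT after vehicle had 28 estimates above 0, a median of 0.08 and 1 member at an unadjusted p under 0.05, MANF (0.21, SE 0.09, adjusted p = 1.0 by edgeR), where 0.722% of all genes were listed in that direction. With the replicate block 8 members were listed there, against 2.48% of all genes, and 0 passed the adjusted threshold. After dexamethasone K154R against WT listed CRELD2 (0.19) and SDF2L1 (0.28), against 0.79% of all genes in that direction, and K154Q against WT listed 0 members after vehicle (1.02% of all genes) and 0 after dexamethasone (1.5%). Without number 4 of WT, K154Q against WT listed 6 members after dexamethasone, and without number 1 of WT it listed 1. K154R against WT after vehicle listed 3 without number 3 of WT, 2 without number 1 of K154R, and 0 without number 4 of WT or number 2 or 4 of K154R. K154R against WT after dexamethasone listed 4 without number 3 of WT, and 0 without number 1 or 4 of WT or number 2 or 3 of K154R. For refits that left out 1 library the share of all genes was not counted. Comparisons that share a group are not independent of each other. Summed hepatocyte markers ran from 46250 to 56200 CPM in K154Q after dexamethasone and from 46690 to 55060 CPM in K154R, and markers of other cell types from 7.76 to 15.8 and from 9.72 to 12.7 CPM. Their part in these differences was not tested. The receptor and any other trait of the transduced cells of that genotype cannot be told apart.

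**Figure D4:**
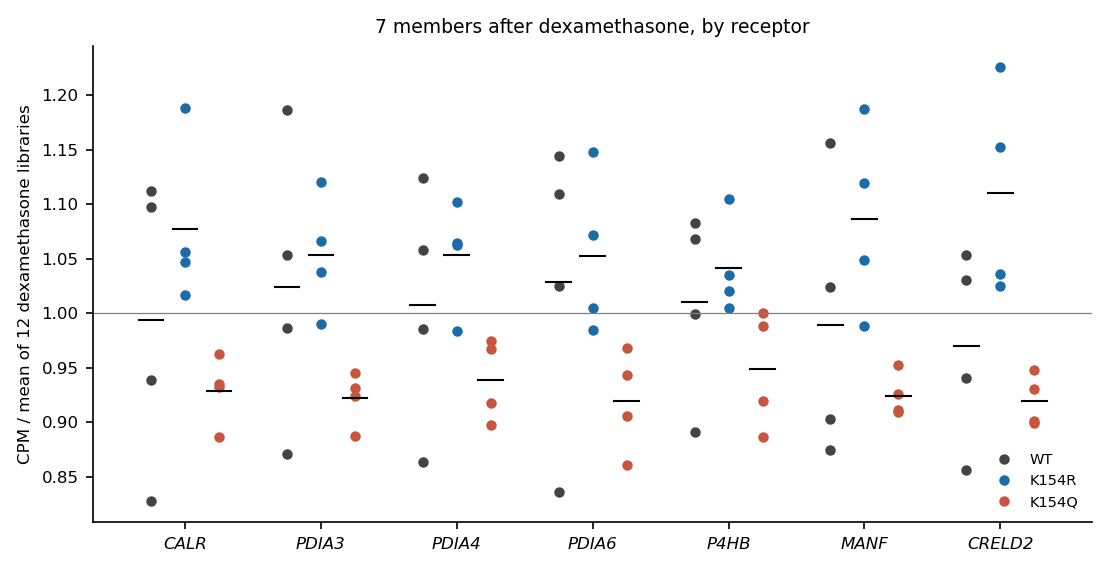
CPM of 7 members after dexamethasone, divided by the gene's mean over the 12 dexamethasone libraries (points are libraries, lines means of 4). The 7 genes are the members in which each K154Q library was below each K154R library, so that separation follows from the choice. K154Q points run from 0.86 to 1.0, while WT points overlap those of both variants in each gene. They do not always reach the top of K154R. For CRELD2 the highest WT point is 1.054, where K154R runs from 1.025 to 1.226.

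Most members differed by replicate number. In a fit with the number as a term, 26 of 31 members (83.9%) differed between numbers at an adjusted p under 0.05 (edgeR), where 63.4% of all tested genes did. The median range between the highest and the lowest number was 0.29 on the log2 scale for the members and 0.30 for all genes. All 7 ER chaperones, both secreted factors, all 4 degradation genes, 5 of 7 lectins and disulfide enzymes, 4 of 5 sensors and factors and 4 of 6 ATF4 branch genes were called. XBP1, P4HB, ERO1B, TRIB3 and ASNS were not.

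HYOU1 (ORP150), a large chaperone of the HSP70 family, had the smallest p for replicate number, while ATF3 had the widest range, 0.64 on the log2 scale. Its means over 6 libraries were 355 CPM for number 1, 327 for number 2, 344 for number 3 and 237 for number 4, and the range of HYOU1 was 0.58 on the log2 scale (adjusted p = 2.1e-09 by edgeR). In the vehicle libraries HYOU1 stood at 327, 315, 346 and 224 CPM in WT, at 368, 316.5, 330.4 and 244.5 CPM in K154R and at 334, 299, 305 and 209 CPM in K154Q. The library with number 4 was the lowest in each group. HSPA5 means were 1618, 1695, 1725 and 1349 CPM for numbers 1 to 4, and SEL1L means were 183, 186, 151 and 135 CPM. Chaperones and lectins were lowest in number 4, in 5 of 7 and 6 of 7 genes. The ATF4 branch was arranged the other way, with 5 of its 6 tested genes highest in number 4. ATF4 means were 275, 298, 339 and 355 CPM, PPP1R15A means were 22.0, 23.0, 26.3 and 30.5 CPM, and ATF3 means were 4.35, 4.56, 5.76 and 6.87 CPM. Of all 31 members 14 were lowest and 6 highest in number 4, while of all 16196 genes 4120 were lowest and 4203 highest there. Depth ran from 23863672 to 35027597 counts in number 4 and from 24149532 to 42072021 counts in the other numbers. Summed hepatocyte markers ran from 45690 to 50630 CPM in number 4, inside the range of the others, and markers of other cell types from 10.2 to 15.8 CPM against 7.76 to 12.7 CPM. Their part in the pattern was not tested. Leaving out 1 number at a time left 20 to 26 members called, the fewest without number 4, where 51.9% of all genes were called. Without numbers 1, 2 and 3 the share of all genes called was 47.4%, 49.7% and 55.1%.

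**Figure D5:**
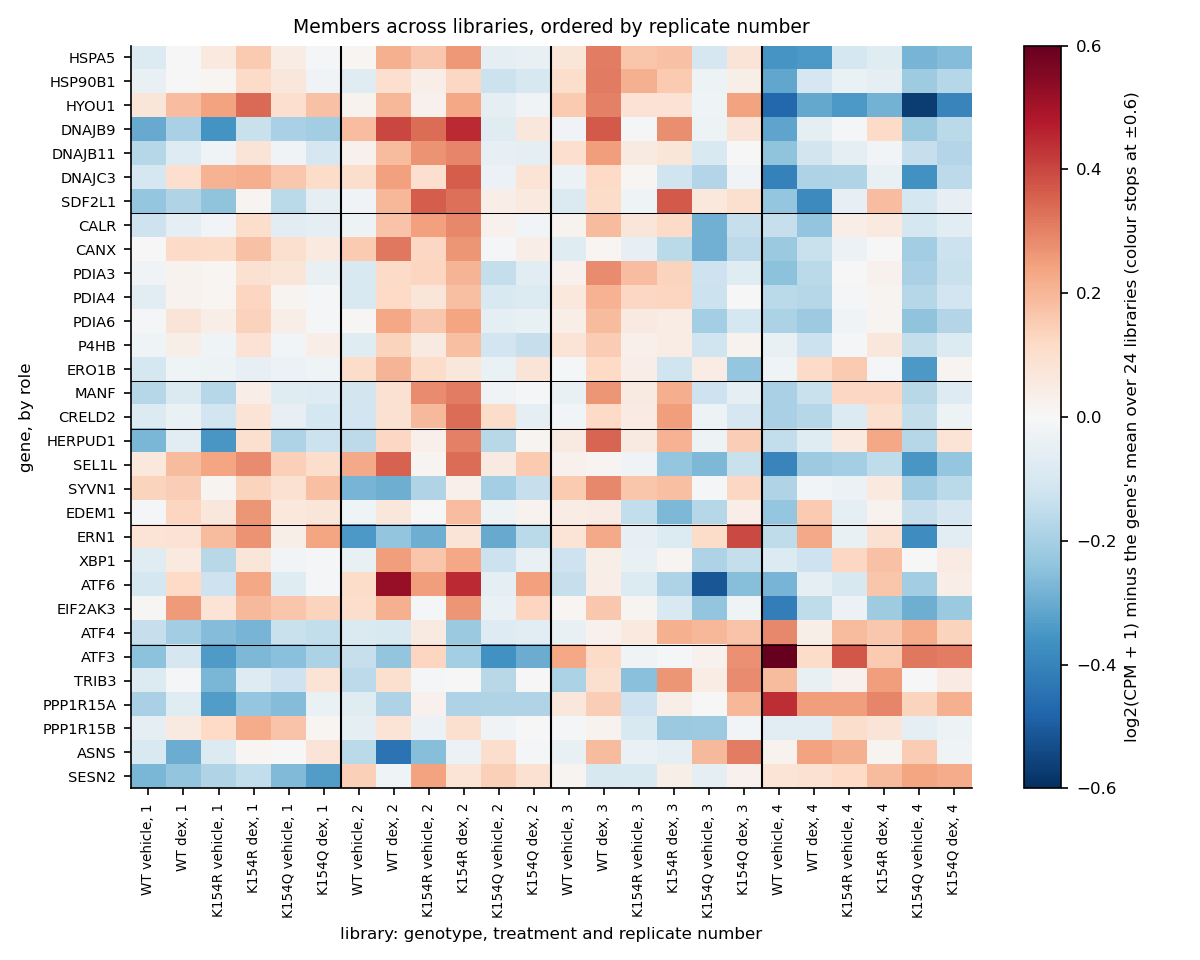
Log2(CPM + 1) of 31 members minus the gene's mean over 24 libraries (colour), with libraries ordered by replicate number and genes by role. Most chaperones and lectins turn blue (low) and ATF4, ATF3, PPP1R15A and SESN2 red (high) in the 6 columns of number 4, in vehicle and dexamethasone alike.

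Other genes of the pathway, taken from lists of known function, gave few calls in the averaged response, where edgeR called 1.06% of all genes. Of 23 further ER folding and redox factors edgeR called 0, with 23 of 23 estimates above 0, as were 47.7% of all genes, and a median of 0.06. Their smallest p values belonged to ERP44, which retains client proteins (0.11, SE 0.05), and FKBP14, a prolyl isomerase (0.08, SE 0.04). By genotype, 23 of these 23 factors were above 0 in WT (median 0.12) and 22 in K154R (median 0.05). In K154Q 13 were (median 0.01), where 49.1% of all genes were. Like the members, such genes are not independent counts of direction. None of 18 genes of translocation and signal peptide removal was called (median 0.03), led by SSR3 and SPCS3 at 0.10 each. Of these 18 genes 17 were above 0 in WT, 13 in K154R and 8 in K154Q. Of 17 further degradation genes tested 0 were called (median 0.05), led by SELENOS at 0.12 and ERLEC1 at 0.07. Of 12 cytosolic heat shock genes 0 were called and 10 estimates were below 0 (median -0.06), among them DNAJB1 (-0.10) and HSP90AB1 (-0.06). At an unadjusted p under 0.05, edgeR listed 1, 2, 1 and 0 genes of these 4 lists, where 7.01% of all genes were listed. Among 19 other stress regulators 1 was called, against the 1.06% of all genes. TXNIP, an inhibitor of thioredoxin that ER stress can raise, rose by 0.20 on the log2 scale (SE 0.04, adjusted p = 0.0072 by edgeR), from 105 ± 7.06 CPM to 121 ± 8.83 CPM (SD, n = 12). EIF2B4, a subunit of the initiation factor eIF2B, stood at -0.08 (SE 0.04). Of 26 further ATF4 branch genes tested 0 were called (median -0.02). DDIT4 (REDD1), an mTORC1 inhibitor that ATF4 and the glucocorticoid receptor both raise, stood at 0.42 (SE 0.12, adjusted p = 0.121) by edgeR, and VLDLR, a lipoprotein receptor, at 0.45 (SE 0.14, adjusted p = 0.18). With the replicate block DDIT4 was called in K154R (estimate without block 0.53, adjusted p with block = 0.0018) and in K154Q (0.44, adjusted p with block = 0.0154 by edgeR). DERL3, with 10 counts over all libraries, and FGF21, with 13, were not tested.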

How the data were processed

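Poly(A) RNA of 24 cultures was sequenced from stranded libraries (input 300 ng, RNA integrity 8.6 or more), per the labels' protocols. The authors deposited raw counts of reads per gene, not normalized. Per the submitters' processing notes, bcl2fastq 2.20.0.422, cutadapt 3.7, STAR 2.7.6a and featureCounts 2.0.3 were used with GRCh38.p13. Annotation release, strand setting and handling of multi-mapping reads were not stated in any source used here, so genes that overlap or have near-identical copies are uncertain.

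Samples were grouped by their titles. Counts were fitted in R 4.3.3 with edgeR 4.0.16 (limma 3.58.1): filterByExpr, TMM, a quasi-likelihood model with 6 group means over 24 libraries, and Benjamini-Hochberg adjustment over 16196 genes at 0.05. SE was taken as the size of the log2 fold change over the square root of F. CPM carries the TMM factors, and levels per kilobase use the table's exon lengths. Replicates differed by more than sampling noise (chi-square per degree of freedom 12.5 to 76.2), so replicate spread, not depth, limits precision. P-values measure the spread between these cultures.

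Replicate numbers were checked by correlating deviations from group means. Of 60 same-number pairs 55 exceeded 0.1, with a median r of 0.35 where unlike numbers gave -0.13. Every pair did so for the K154R response (lowest r 0.26), the K154Q response (0.38), K154Q less K154R (0.18), all 3 vehicle comparisons (0.31, 0.31 and 0.27) and K154Q against K154R after dexamethasone (0.18). There the fit with the number as a block is given beside a result it changes.

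The members and lists were chosen with earlier results of these data known. Library values are given for members called in any comparison (with the block where numbers pair), for the member of each role with the smallest p in the averaged response, and for HSPA5, DNAJB9, XBP1 and ATF4. CALR, CRELD2, PDIA3, HYOU1 and EDEM1 were added after their values were seen. Of each list the 2 genes with the smallest p were named. Alternatives were RLE size factors, no filter, the block, only the genotypes compared, DESeq2 1.42.0 and leaving out each replicate.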

Additional observations from a re-analysis of the deposited data

Results flagged for a closer look

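Library values of 9 members were checked in 6 groups, which makes 54 sets of 4, for a single library whose gap to the nearest of the others was larger than Dixon's critical value allows. Chance alone marks about 1 in 20 sets in such a check, and here 3 were marked. HERPUD1 in the K154R vehicle library with number 1 stood at 67.0 CPM, while the other 3 ran from 87.5 to 89.2 CPM. The HERPUD1 call in K154R with the replicate block was lost when the libraries of number 1 were left out, and also when those of number 2 were. HERPUD1 in the K154Q vehicle library with number 3 stood at 83.8 CPM, while the others ran from 75.1 to 76.3 CPM. ATF6 in the K154R vehicle library with number 2 stood at 70.1 CPM, while the others ran from 53.7 to 55.5 CPM.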

How the results depend on the processing

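Of the 281 alternative values for counts of members called and for medians of members, 272 stayed the same and 9 moved. Many of them are counts for differences of responses and genotype comparisons, where the main fit called 0% of all genes. Such counts of 0 had little room to move, so the tally is not a measure of robustness. A count stayed the same when it equalled the main count or was within a set ratio of it. A median did when it moved by less than the pooled SD, within groups, of the libraries' median member level on the log2 scale. The 9 exceptions concern members called. In the averaged response, where the count was 0, no filter on low counts gave 2 (HERPUD1 and ATF6) among 37960 genes tested. The share of all genes called was not counted in that fit. There the unadjusted p of ATF6 by edgeR went from 0.010 to 0.00013, while its estimate stayed at 0.23. DESeq2 gave 1, where 1.58% of all genes were called. The replicate block gave 6 (ATF6, DNAJB9, ERN1, HERPUD1, HYOU1 and TRIB3, where 4.23% of all genes were called). With it the adjusted p by edgeR was 0.00028 for HERPUD1, 0.0017 for ATF6, 0.019 for DNAJB9, 0.0231 for HYOU1, 0.037 for TRIB3 and 0.0466 for ERN1. Replicate numbers are not taken to pair the libraries there, although 23 of 24 libraries correlated best with libraries of the same number, which is a hint from the data and not the design. Leaving out 1 library gave 0 to 1, with the share of all genes not counted. In the K154R response the replicate block gave 1, where 1.23% of all genes were called. The cause was not tested.

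At the unadjusted threshold the block raised the members listed in the WT response from 1 to 12 (10.2% of all genes), in the K154R response from 3 to 6 (8.05%), in the K154Q response from 0 to 5 (6.24%), in the averaged response from 5 to 16 (16.9%) and in K154Q against WT after dexamethasone from 0 to 7 (7.68%). It changed no other call of a member by adjusted p. In the averaged response it called 4 of the further ATF4 branch genes as higher (3.2% of all genes) and 1 cytosolic heat shock gene as lower (1.02% of all genes). The values outside that tally are counts at the unadjusted threshold and estimates of single members. Of these, 732 stayed the same, 58 moved, 19 newly passed the adjusted threshold and 10 turned direction. Among single members, leaving out 1 library turned the direction of ATF4 in WT (-0.099 to 0.046), K154R (-0.117 to 0.0476) and K154Q (-0.0942 to 0.0278), and of HSPA5 in K154Q (-0.0145 to 0.108), none of which passed the test. Depth limits ASNS and CHAC1.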
